A study of Rattus norvegicus with 12 samples.

Results

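Gene expression in the L5 dorsal root ganglion (DRG) on the side of a spinal nerve ligation (SNL) was set against the ganglion of the opposite side (Control), 14 days after the injury. The comparison rests on 6 of the 12 libraries of the series, 3 from SNL ganglia and 3 from Control ganglia, all by polyA RNA sequencing. Every row of the table for this comparison that carries a gene symbol was used, and where a symbol had several rows the one with the highest mean of both groups was taken. That left 16884 symbols or combinations of symbols, from 18160 of the 28578 rows. The SNL group came from Sprague Dawley rats whose L5 spinal nerve was tightly ligated on the left with silk thread, and Control is the intact right side, not an unoperated animal. The labels give male rats, whereas the methods name rats of both sexes, 5 to 6 weeks old. Whether an SNL and a Control library share an animal is not given. The remaining libraries are from SNL rats given an AAV with control shRNA or with Neat1 shRNA before SNL, and of these only the levels with control shRNA (SNL + control AAV) are quoted beside some genes. Those levels stand in a table that was assembled and normalized separately, so they are levels only.

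The deposited unit is FPKM, the number of fragments scaled to transcript length and to the mapped fragments of the library, and each group has 1 value that the authors made over its 3 libraries. These values alone give neither the spread between animals nor the read depth. The authors' own test columns in the same table were not used, and no test was made here, so the differences below are described without replicate error. A log2 ratio here is the log2 of (SNL FPKM + 1)/(Control FPKM + 1), which understates the change of genes with low values. With the fold thresholds of the study, a gene rose where this ratio was above 1.5 before the logarithm and fell where it was below 0.67. The study also required a P value under a cutoff, which was not applied here. The calls below, made on FPKM + 1, are therefore not the study's own.

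The DRG holds the cell bodies of primary sensory neurons, which are wrapped by satellite glia and send axons ensheathed by Schwann cells to skin, muscle and viscera. Ligation of a spinal nerve cuts these axons off from their targets. Axotomized sensory neurons are known to switch to a growth program, in which transcription factors of the ATF and AP-1 families rise while channels, receptors and transmitters of the intact neuron fall. Macrophages and lymphocytes gather in the ganglion over the same days.

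Markers of sensory neurons were present in both groups, at levels that differed between genes. Uchl1, the ubiquitin hydrolase of neurons, had 2021 FPKM in SNL, against 2305 FPKM in Control, and Prph, the gene of the neuronal intermediate filament peripherin, had 1734 FPKM in SNL and 1643 FPKM in Control ganglia. The peptide gene Calca fell to 25.2 FPKM in SNL, against 807 FPKM in Control, and the transcription factor gene Isl1 to 9.56 FPKM in SNL, against 24.8 FPKM in Control. Of 9 sensory neuron markers in the table, 1 rose and 6 fell, with a median log2 ratio of -1.86 against 0 over all symbols. Their summed FPKM was 8231 in SNL and 10104 in Control. In bulk RNA, fewer cells of a type and less RNA per cell cannot be told apart. Of 9 markers of satellite glia and Schwann cells 2 rose and 2 fell, and their summed FPKM was 6374 in SNL and 8029 in Control. Endothelial markers summed to 150.2 FPKM in SNL and 123 FPKM in Control (1 of 14 rose), and pericyte markers to 167 FPKM in SNL and 137 FPKM in Control (1 of 12 rose). Mast cell markers summed to 18.1 FPKM in SNL and 14.7 FPKM in Control (1 of 10 rose), and neutrophil markers to 12.6 FPKM in SNL and 10.4 FPKM in Control (2 of 11 rose and 1 fell). A list of 18 macrophage and leukocyte markers, written after values had been seen, stood apart. All but 1 of its 16 members in the table rose, and the summed FPKM was 863 in SNL and 154 in Control. Fibroblast markers, a list of the same kind, rose in 10 of 12 cases, with a summed FPKM of 1236 in SNL and 507 in Control. Red blood cell markers were present (summed FPKM 1092 in SNL and 817 in Control, 0 of 6 rose and 1 fell), and the hemoglobin gene Hba1 had 724 FPKM after SNL and 557 FPKM in Control. Among 9 skeletal muscle markers 1 rose and 1 fell. The troponin gene Tnnt3 rose with 5.16 FPKM in SNL, against 1.97 FPKM in Control, the muscle creatine kinase gene Ckm had 0.337 FPKM in SNL, against 0.758 FPKM in Control, and the fall of the list's sum, to 27.3 in SNL against 274 in Control, was that of Pvalb, which proprioceptive neurons also express (15.97 FPKM in SNL against 265 FPKM in Control). Adipocyte markers stayed low in sum (19.7 FPKM in SNL and 8.11 FPKM in Control, 2 of 7 rose and 1 fell), with the adiponectin gene Adipoq at 0.0600 FPKM in SNL and 0.0121 FPKM in Control. In the list for brain and spinal cord 0 of 12 rose, and the 2 that fell, Isl2 and Slc17a7, are also genes of DRG neurons. The myelin gene of the central nervous system Mog had 0.108 FPKM in SNL and 0.0881 FPKM in Control.

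Over all 16884 symbols, 1928 (11.4%) rose after SNL and 1687 (9.99%) fell. Among the 11146 symbols with a mean FPKM of at least 1 over both groups these shares were 15.7% and 14.1%. On FPKM + 1 the change passed 4-fold for 149 symbols that rose and 195 that fell, and 16-fold for 16 and 23. Among symbols with a mean FPKM of at least 5, those closest to the upper threshold were Tyw1 inside it (7.57 FPKM in SNL and 4.71 FPKM in Control) and Apol9a outside it (6.42 FPKM in SNL and 3.95 FPKM in Control). Near the lower threshold lay Astn1 inside (9.74 FPKM in SNL and 15.0 FPKM in Control) and Mogat2 outside (7.55 FPKM in SNL and 11.8 FPKM in Control). The 25 most abundant symbols took 12.97% of the summed FPKM in SNL and 12.98% in Control. At the top of the list, the apolipoprotein gene Apod, a lipocalin of peripheral glia and fibroblasts, stood at rank 1 in SNL and rank 24 in Control.

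**Figure D1:**
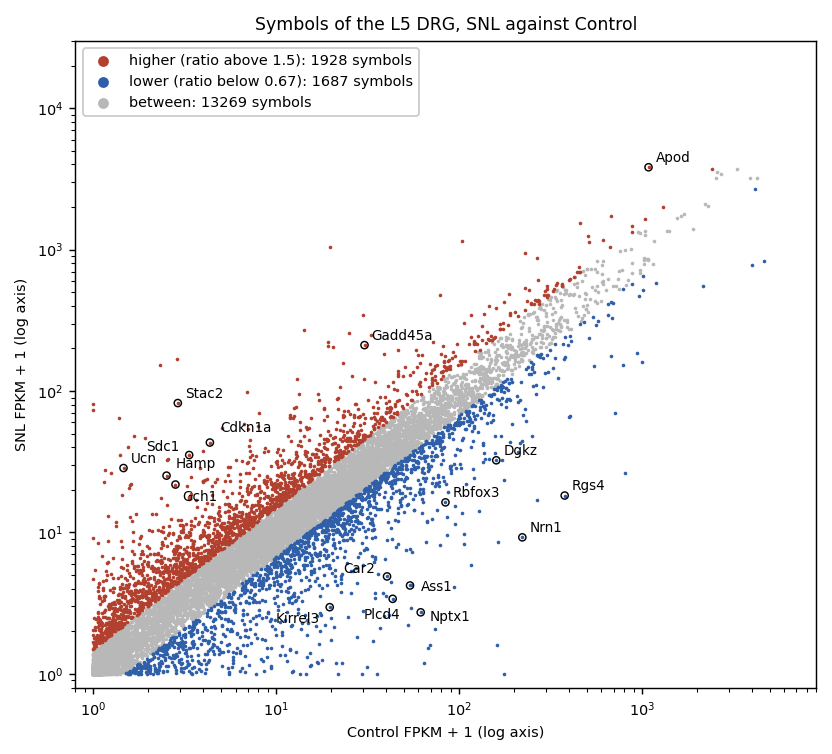
FPKM + 1 of each of the 16884 symbols in SNL ganglia (vertical, log axis) and Control ganglia (horizontal, log axis), 1 point per symbol and 1 deposited value per group. The 1928 symbols that rose are in red, the 1687 that fell in blue, and circled genes are named in the text, with Apod at the upper right with 3822 FPKM in SNL and 1086 in Control.

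A set of 46 gene classes was described, with 1237 members in the table. Of these members 215 (17.4%) rose and 211 (17.1%) fell, shares above the 11.4% and 9.99% of all symbols. With a mean FPKM of at least 1 the shares were 19.6% and 18.7% of 1057 members, beside 15.7% and 14.1% of all such symbols. Several classes below have counts near the shares of all symbols, and such counts do not set a class apart. Gap junction genes, zinc and copper transporters, chloride channels and neuronal RNA-binding proteins are among them. Of these 426 members past a threshold, 219 were also past thresholds of 2 and 0.5, so that the class counts below depend on the threshold. In 22 classes more members rose than fell, in 21 more fell, and in 3 the counts were equal. The classes with the largest balance toward higher values were the DNA damage response, serpins and coagulation factors, the circadian clock and actin regulators. At the other end stood immunoglobulin-type and synaptic adhesion molecules, inward rectifier and calcium-activated potassium channels, and the tricarboxylic acid cycle.

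**Figure D2:**
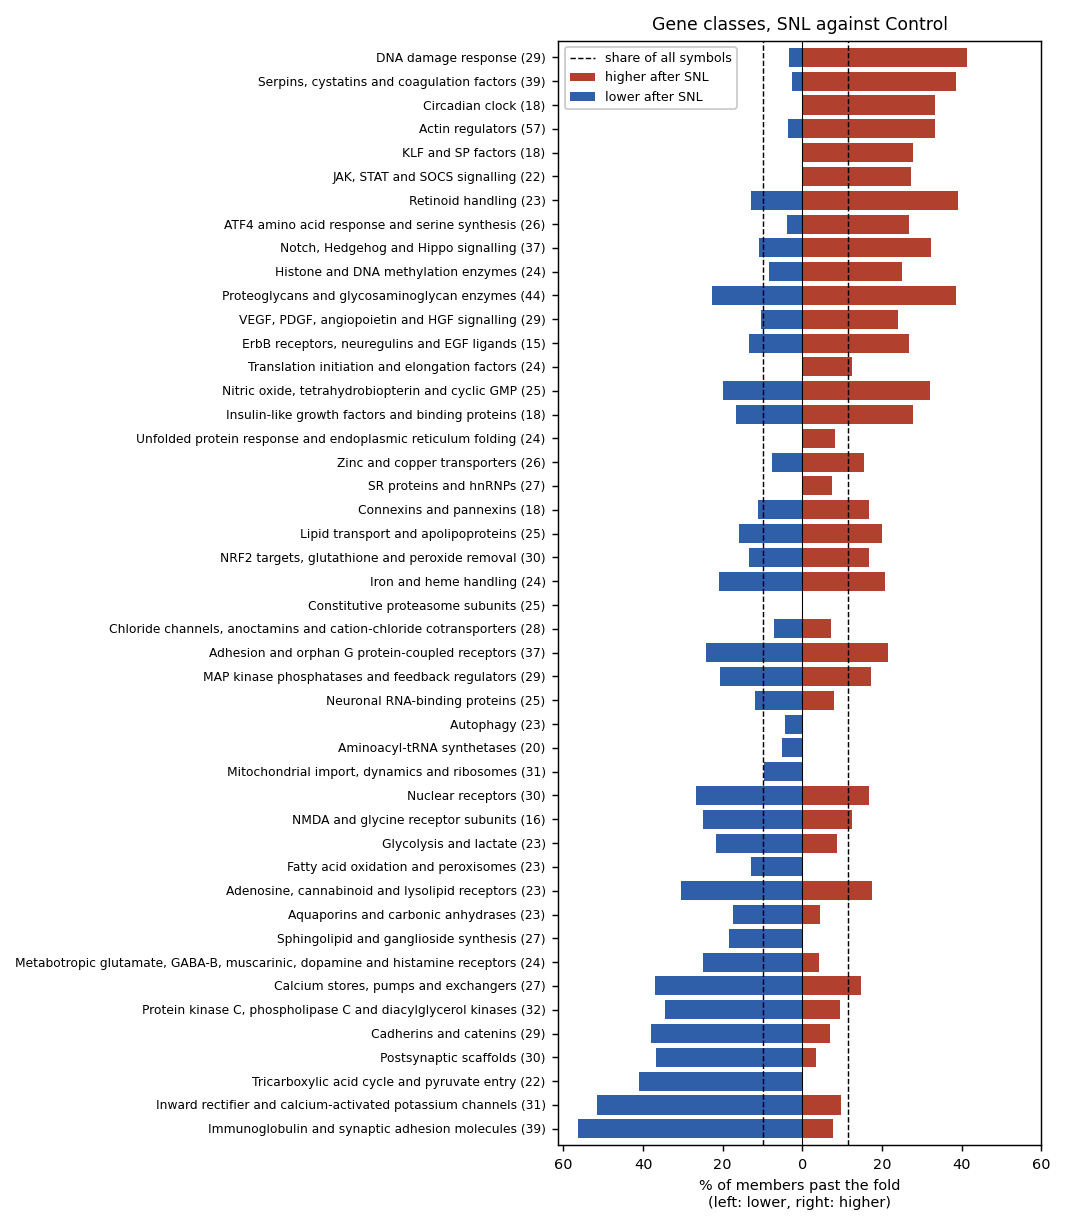
Share of the members of each of 46 gene classes that rose (red, to the right) or fell (blue, to the left) after SNL, as a percent of the members in the table, whose number stands in brackets. Dashed lines mark 11.4% and 9.99%, the shares of all symbols, and none of the 25 proteasome subunits passes either threshold.

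Of the genes for tetrahydrobiopterin (BH4) synthesis and recycling, Gch1, Spr and Qdpr rose after SNL, while the enzyme that starts arginine regeneration fell. BH4 is the cofactor of nitric oxide synthases and of the aromatic amino acid hydroxylases. Gch1, GTP cyclohydrolase and the rate-limiting step of BH4 synthesis, had 20.8 FPKM in SNL and 1.82 FPKM in Control ganglia, a log2 ratio of 2.95. The last enzyme of that path, sepiapterin reductase (Spr), had 29.9 FPKM after SNL and 11.2 FPKM in Control. Pts, the enzyme between them, stayed within the fold at 9.19 FPKM in SNL and 6.79 FPKM in Control. Qdpr, which restores oxidized BH4, had 246 FPKM in SNL and 149 FPKM in Control ganglia. The neuronal nitric oxide synthase gene Nos1 had 6.05 FPKM after SNL and 0.816 FPKM in Control, a log2 ratio of 1.96. Argininosuccinate synthetase (Ass1), which returns citrulline to the arginine path, ran the other way with 3.22 FPKM in SNL, against 52.99 FPKM in Control (log2 ratio -3.68), although the next enzyme, Asl, rose at 26.02 FPKM in SNL against 13.4 FPKM in Control. Downstream, the cyclic GMP-dependent kinase gene Prkg1 had 8.51 FPKM in SNL and 17.5 FPKM in Control ganglia, and the phosphodiesterase Pde5a, which breaks cyclic GMP down, had 5.61 FPKM after SNL and 2.85 FPKM in Control. Both natriuretic peptides of the list fell. Nppa had 2.28 FPKM in SNL, against 11.7 FPKM in Control, and Nppb, a peptide of itch neurons in mice, had 0.177 FPKM in SNL and 3.11 FPKM in Control ganglia. In all, 8 of 25 members rose and 5 fell, with a median log2 ratio of 0.05. With SNL + control AAV, Gch1 stood at 21.9 FPKM, Nos1 at 6.04 and Ass1 at 3.003.

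**Figure D3:**
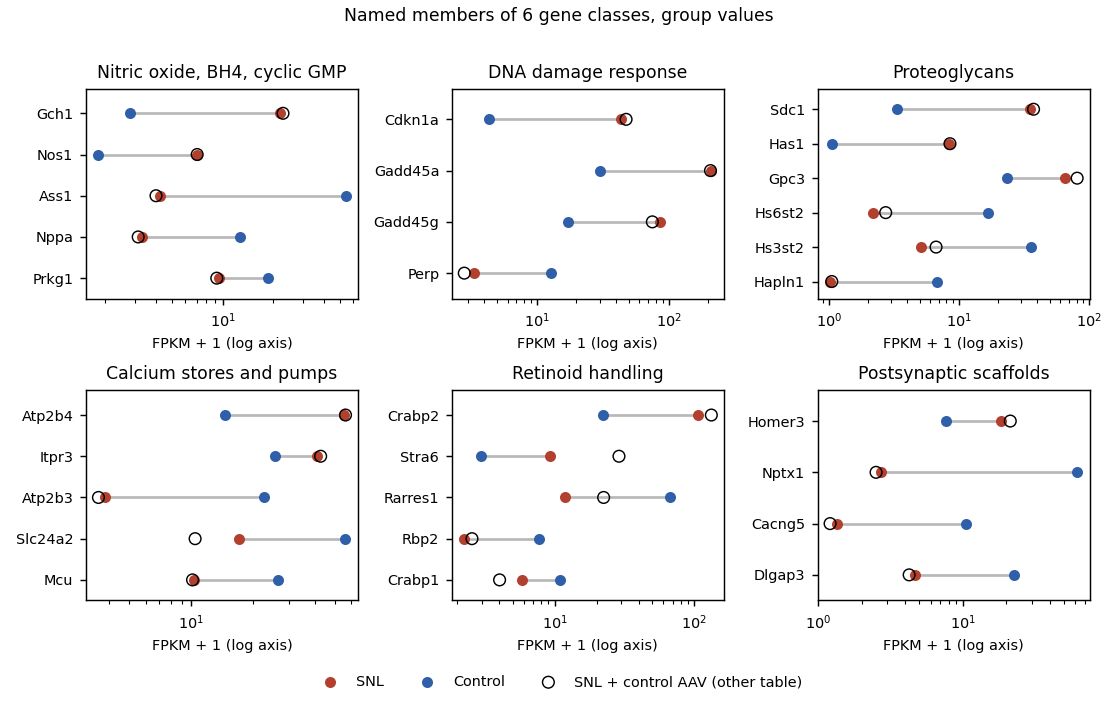
FPKM + 1 (log axis) of the named members of 6 classes in SNL ganglia (red), Control ganglia (blue) and, as a level from the separately normalized table, SNL + control AAV (open circles), 1 deposited value per group. Gch1 lies at 20.8 FPKM in SNL and 1.82 in Control, and Nptx1 at 1.73 FPKM in SNL and 60.7 in Control.

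Iron genes moved in both directions, 5 of 24 up and 5 down, beside 15.7% and 14.1% of all symbols with a mean FPKM of at least 1. Hamp, the gene of hepcidin, the peptide that closes the iron exporter ferroportin, showed the largest change, with 24.2 FPKM after SNL and 1.52 FPKM in Control (log2 ratio 3.33). The ferroxidase ceruloplasmin (Cp) had 29.4 FPKM in SNL, against 9.09 FPKM in Control and the ferrireductase Steap4 had 12.9 FPKM in SNL and 5.26 FPKM in Control ganglia. On the side of iron uptake, the transferrin receptor gene Tfrc had 14.1 FPKM after SNL and 32.7 FPKM in Control, and the endosomal ferrireductase Steap3 had 10.3 FPKM in SNL, against 25.5 FPKM in Control. The ferritin heavy chain gene Fth1, the second most abundant symbol in SNL, was near even at 3689 FPKM in SNL and 3317 FPKM in Control. Lcn2, a siderophore-binding lipocalin that neutrophils also carry, had 3.01 FPKM in SNL and 5.75 FPKM in Control ganglia.

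Targets of the transcription factor NRF2 and genes of glutathione and peroxide removal formed 1 class. It moved in both directions, with 5 of 30 up and 4 down (median log2 ratio -0.09). These shares are near the 15.7% and 14.1% of all symbols with a mean FPKM of at least 1. Sulfiredoxin (Srxn1), which repairs over-oxidized peroxiredoxins, had 89.4 FPKM after SNL and 38.3 FPKM in Control. The peroxiredoxin Prdx6 had 154 FPKM in SNL, against 68.5 FPKM in Control and the glutathione peroxidase Gpx1 had 142 FPKM in SNL and 84.8 FPKM in Control ganglia. The modifier subunit of glutathione synthesis (Gclm) and the quinone reductase Nqo1, which like Srxn1 are known NRF2 targets, fell. Gclm had 22.7 FPKM after SNL and 45.2 FPKM in Control, and Nqo1 had 18.04 FPKM in SNL, against 33.4 FPKM in Control. Mitochondrial Prdx3 fell as well, at 36.96 FPKM in SNL against 62.4 FPKM in Control, while mitochondrial Sod2 rose, at 192 FPKM in SNL against 121 FPKM in Control.

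In the amino acid response that ATF4 drives, 7 of 26 members rose and 1 fell. With thresholds of 2 and 0.5 these counts were 1 and 0. The pseudokinase gene Trib3 had 5.01 FPKM in SNL and 0.9798 FPKM in Control ganglia, a log2 ratio of 1.60. Mthfd2, a mitochondrial enzyme of folate metabolism, had 15.9 FPKM after SNL and 8.45 FPKM in Control, and the receptor gene Vldlr had 12.9985 FPKM in SNL, against 7.40 FPKM in Control. Atf5, Sesn2, Ppp1r15a and Slc7a5 lay just past the fold, with log2 ratios of 0.63, 0.61, 0.60 and 0.60. Phgdh, the first enzyme of serine synthesis, was the member that fell, with 37.2 FPKM in SNL and 56.8 FPKM in Control ganglia. Atf4 itself had 206 FPKM in SNL and 180.4 FPKM in Control. Of 24 genes of the unfolded protein response and of folding in the endoplasmic reticulum, 2 rose and 0 fell. The share that rose is under the 11.4% of all symbols. The members that rose are named next. These were P4hb, a protein disulfide isomerase (149.7 FPKM after SNL and 88.5 FPKM in Control), and Sdf2l1 (17.5 FPKM in SNL, against 10.6 FPKM in Control), whereas the chaperone Hspa5 had 179 FPKM in SNL and 163 FPKM in Control. Among 24 translation factors 3 rose and 0 fell, and the share that rose is near the 11.4% of all symbols. The largest log2 ratio was that of the cap-binding inhibitor Eif4ebp1, at 28.2 FPKM in SNL against 9.22 FPKM in Control. The poly(A)-binding protein gene Pabpc1 had 183 FPKM in SNL and 78.8 FPKM in Control ganglia, and the elongation factor gene Eef1a1, which has many near-identical processed copies in mammals, had 1171 FPKM after SNL and 614 FPKM in Control. Aminoacyl-tRNA synthetases were near even (0 of 20 rose, 1 fell), with Nars at 101 FPKM in SNL and 124 FPKM in Control and Sars at 101 FPKM in SNL and 117 FPKM in Control.

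The promoters of 4 of these genes are shown because the genes rose and their windows hold the AP-1 motif TGACTCA, the letters that Fos, Jun and ATF family dimers bind. The windows run from 250 bases before to 50 after the annotated start in the RefSeq promoter table of build GRCr8, in the direction of the gene. Capitals mark TGACTCA and the cyclic AMP response type motif TGACGTC, searched on both strands, and where TGACGTC overlaps its own reverse complement the capitals run on by 1 base. Nos1 lies at chr12:44371788-44372087, Ppp1r15a at chr1:105139547-105139846, Srxn1 at chr3:161064562-161064861 and Hamp at chr1:95300222-95300521, all on the minus strand except Srxn1.
Nos1: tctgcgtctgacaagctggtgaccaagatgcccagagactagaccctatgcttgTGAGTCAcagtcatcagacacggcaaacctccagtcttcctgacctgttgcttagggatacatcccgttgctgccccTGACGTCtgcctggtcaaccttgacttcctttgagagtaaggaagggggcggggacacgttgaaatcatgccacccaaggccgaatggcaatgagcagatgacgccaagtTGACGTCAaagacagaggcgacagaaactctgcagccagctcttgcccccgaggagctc
Ppp1r15a: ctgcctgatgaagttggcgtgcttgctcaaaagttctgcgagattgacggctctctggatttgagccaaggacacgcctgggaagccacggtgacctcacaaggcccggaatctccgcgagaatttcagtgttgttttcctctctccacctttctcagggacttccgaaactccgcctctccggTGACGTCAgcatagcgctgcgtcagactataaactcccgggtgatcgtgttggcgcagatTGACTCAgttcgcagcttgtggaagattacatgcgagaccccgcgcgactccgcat
Srxn1: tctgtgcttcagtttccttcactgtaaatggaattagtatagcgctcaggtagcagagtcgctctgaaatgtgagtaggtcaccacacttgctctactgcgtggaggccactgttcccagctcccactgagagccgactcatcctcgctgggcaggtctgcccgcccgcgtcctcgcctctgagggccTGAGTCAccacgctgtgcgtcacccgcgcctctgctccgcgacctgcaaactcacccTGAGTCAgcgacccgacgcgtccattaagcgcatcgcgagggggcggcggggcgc
Hamp: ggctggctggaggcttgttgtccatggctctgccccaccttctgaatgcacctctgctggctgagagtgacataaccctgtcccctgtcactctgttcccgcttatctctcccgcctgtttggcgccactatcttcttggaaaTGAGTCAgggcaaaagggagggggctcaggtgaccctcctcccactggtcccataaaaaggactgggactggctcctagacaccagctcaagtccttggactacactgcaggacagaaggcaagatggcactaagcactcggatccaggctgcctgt
With the annotated start counted as 0, TGACTCA begins at -196 in the Nos1 window, at -6 in that of Ppp1r15a and at -107 in that of Hamp, and Srxn1 holds 2 matches. Of 163 class members that rose and have a promoter of their symbol in the RefSeq table, 9 held TGACTCA and 8 held TGACGTC. The first of these motifs was present in 5.59% of the 1395 promoters of symbols that rose, in 3.38% of 1241 that fell, and in 174 of 5807 within the fold at a mean FPKM of at least 1. Over all 27457 promoters of the table the share was 4.53%. TGACGTC was present in 4.95% of the promoters of symbols that rose, 5.16% of those that fell and 5.56% of those within the fold, with 3.34% over all promoters. A match describes letters in these windows and is not a measured binding site.

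Among genes of the DNA damage response 12 of 29 rose and 1 fell (median log2 ratio 0.39). Cdkn1a, the p21 inhibitor of cyclin-dependent kinases, had 42.2 FPKM in SNL, against 3.34 FPKM in Control, a log2 ratio of 3.32. The growth arrest gene Gadd45a had 210.3 FPKM in SNL and 29.4 FPKM in Control ganglia and Gadd45g had 85.9 FPKM after SNL and 16.2 FPKM in Control, with log2 ratios of 2.80 and 2.33. These 3 genes had 46.6, 207 and 74.4 FPKM with SNL + control AAV. The ubiquitin ligase gene Mdm2 rose less, with 15.3 FPKM in SNL and 9.47 FPKM in Control ganglia. Of the genes linked to cell death, Pmaip1 (Noxa) had 4.86 FPKM after SNL and 1.76 FPKM in Control, while the membrane protein gene Perp fell to 2.33 FPKM in SNL, against 11.8 FPKM in Control.

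Several families of transcription factors leaned toward higher values, mostly by small folds. With thresholds of 2 and 0.5, 2 clock genes and 1 of the KLF and SP factors were higher. None of the 18 clock genes fell and 6 rose, led by Nfil3, a leucine zipper repressor that had 16.3 FPKM in SNL, against 2.35 FPKM in Control (log2 ratio 2.37). Both BMAL genes rose, Arntl2 to 7.47 FPKM in SNL against 1.67 in Control and Arntl to 7.89 FPKM in SNL against 4.24 in Control. Bhlhe40, a repressor of clock output, had 16.8 FPKM in SNL and 9.50 FPKM in Control ganglia. Of 18 KLF and SP factors 5 rose and 0 fell, among them Klf6 (33.3 FPKM after SNL and 15.9 FPKM in Control), Klf2 (24.8 FPKM in SNL, against 12.6 FPKM in Control) and Klf4 (11.1 FPKM in SNL and 5.66 FPKM in Control ganglia), whereas Klf7 had 44.9 FPKM in SNL and 35.6 FPKM in Control. Klf6 and Klf7 are factors of axon growth in fish and mice.

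In JAK and STAT signalling the largest change was that of a feedback gene. Socs3, the inhibitor that cytokines of the interleukin 6 family induce, had 31.7 FPKM after SNL and 5.03 FPKM in Control (log2 ratio 2.44), and the related inhibitor Cish had 29.02 FPKM in SNL, against 13.2 FPKM in Control. Jak2 rose with 21.1 FPKM in SNL and 8.34 FPKM in Control ganglia, while Stat3 had 83.1 FPKM in SNL and 73.97 FPKM in Control and Jak1 had 73.1 FPKM in SNL and 76.96 FPKM in Control. Ptpn6, the SHP-1 phosphatase of blood cells, had 9.61 FPKM after SNL and 2.43 FPKM in Control. In all 6 of 22 members rose and 0 fell. Leukocyte markers rose over the same comparison (summed FPKM 863 in SNL and 154 in Control), and their part in Ptpn6 or Stat4 (2.81 FPKM in SNL and 0.278 FPKM in Control) was not tested.

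Genes of retinoid handling, a class that holds more than carriers and synthetic enzymes, rose in 9 of 23 cases and fell in 3. Among the 9 were also Dhrs3, at 17.6 FPKM in SNL against 9.38 FPKM in Control, and Rarres2, at 119 FPKM in SNL against 70.4 FPKM in Control. Retinoic acid is a signal of neurite growth, made from retinol by dehydrogenases and carried by small binding proteins. The retinoic acid-binding gene Crabp2 had 105 FPKM in SNL and 21.4 FPKM in Control ganglia. Stra6, the retinol uptake receptor, had 8.33 FPKM after SNL and 1.96 FPKM in Control, and Rdh10, which oxidizes retinol, had 15.6 FPKM in SNL, against 5.38 FPKM in Control. The retinaldehyde dehydrogenases followed, Aldh1a1 rising to 20.4 FPKM in SNL against 11.6 in Control, Aldh1a2 to 1.99 FPKM in SNL against 0.833 in Control and Aldh1a3 to 7.45 FPKM in SNL against 3.59 in Control. Other carriers ran the other way. Rbp2 had 1.25 FPKM in SNL and 6.76 FPKM in Control ganglia, and Crabp1 had 4.81 FPKM after SNL and 9.98 FPKM in Control. Rarres1, a retinoic acid-responsive membrane protein gene, had 10.8 FPKM in SNL, against 65.5 FPKM in Control. Of the receptors, Rara rose with 12.6 FPKM in SNL and 5.54 FPKM in Control ganglia and Rarg with 16.6 FPKM after SNL and 10.1 FPKM in Control, and the partner Rxrg had 19.02 FPKM in SNL, against 11.2 FPKM in Control. Stra6 stood at 27.9 FPKM with SNL + control AAV, a level that was normalized separately.

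Among the other nuclear receptors more fell than rose, and the class as a whole had 5 members up and 8 down of 30. The orphan receptor gene Nr2f2 (COUP-TFII) had 50.6 FPKM in SNL and 25.1 FPKM in Control ganglia. All 3 estrogen-related receptors, known for control of mitochondrial genes, fell. Esrra had 13.1 FPKM after SNL and 21.4 FPKM in Control, Esrrg had 0.845 FPKM in SNL, against 5.78 FPKM in Control, and Esrrb was low at 0.258 FPKM in SNL and 1.95 FPKM in Control. The thyroid hormone receptor gene Thra had 52.2 FPKM in SNL and 85.4 FPKM in Control ganglia.

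Chromatin enzymes rose in 6 of 24 cases and fell in 2. Ezh2, the methyltransferase of Polycomb repressive complexes, had 9.14 FPKM in SNL, against 2.01 FPKM in Control (log2 ratio 1.75), and Uhrf1, which maintains DNA methylation in dividing cells, had 2.74 FPKM in SNL and 0.570 FPKM in Control ganglia. The demethylase Kdm6b, which acts on the same histone residue as Ezh2, had 12.02 FPKM after SNL and 6.72 FPKM in Control. Class I deacetylases Hdac1 and Hdac2 lay just past the fold at log2 ratios of 0.64 and 0.59, whereas Hdac11 fell with 10.9 FPKM in SNL, against 27.6 FPKM in Control. Of 27 SR proteins and hnRNPs 2 rose and 0 fell, one of them Ptbp1, a repressor of neuronal exons, with 29.6 FPKM in SNL and 15.98 FPKM in Control ganglia. The other was Srsf9, at 15.98 FPKM in SNL against 9.47 FPKM in Control. Of 25 neuronal RNA-binding proteins 2 rose and 3 fell. Celf3 had 10.4 FPKM after SNL and 2.22 FPKM in Control and Celf2 had 16.9 FPKM in SNL, against 9.11 FPKM in Control. Rbfox3, whose protein is the neuronal nuclear antigen NeuN, had 15.3 FPKM in SNL and 83.3 FPKM in Control ganglia (log2 ratio -2.37), while its paralogs Rbfox1 (33.6 FPKM in SNL and 40.2 FPKM in Control) and Rbfox2 (37.9 FPKM in SNL and 46.6 FPKM in Control) stayed within the fold. Elavl4 fell with 24.2 FPKM after SNL and 43.7 FPKM in Control, whereas Elavl3 had 52.7 FPKM in SNL and 50.04 FPKM in Control.

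Targets of the Hippo and Hedgehog pathways were among the genes that rose, and targets of Notch went both ways (12 of 37 members of the joint class up and 4 down). Ankrd1, a YAP and TEAD target, had 11.1 FPKM in SNL, against 0.625 FPKM in Control (log2 ratio 2.89). The YAP targets Cyr61 and Ctgf had 44.7 and 20.1 FPKM in SNL, against 17.2 and 7.89 FPKM in Control. The effectors Tead1 (17.00 FPKM in SNL and 8.03 FPKM in Control ganglia) and Wwtr1 (26.3 FPKM after SNL and 13.4 FPKM in Control) rose too, and Yap1 had 26.04 FPKM in SNL and 21.4 FPKM in Control. In the Hedgehog pathway Gli1 had 11.3 FPKM in SNL, against 5.57 FPKM in Control and Ptch1 had 26.9 FPKM in SNL and 16.7 FPKM in Control ganglia, both of them target genes, while the ligands Dhh (49.5 FPKM in SNL and 35.2 FPKM in Control) and Shh (27.3 FPKM in SNL and 21.4 FPKM in Control) stayed within the fold. Of the Notch targets Hes5 fell to 0.272 FPKM in SNL, against 7.23 FPKM in Control. Nrarp had 6.50 FPKM after SNL and 12.9 FPKM in Control and Heyl 4.54 FPKM in SNL, against 8.18 FPKM in Control, whereas Hes1 rose with 12.5 FPKM in SNL and 7.95 FPKM in Control ganglia. The Fringe gene Lfng, which modifies Notch receptors, had 17.3 FPKM after SNL and 6.82 FPKM in Control. Fibroblast markers rose with these genes (summed FPKM 1236 in SNL and 507 in Control), and their part in Ctgf or Cyr61 was not tested.

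In the tricarboxylic acid cycle and pyruvate entry 9 of 22 members (40.9%) fell and 0 rose, and the median log2 ratio was -0.51. Below a ratio of 0.5 the count was 2. The cytosolic malate dehydrogenase gene Mdh1 had 174 FPKM in SNL, against 378 FPKM in Control and the cytosolic aspartate aminotransferase gene Got1 had 63.1 FPKM in SNL and 131 FPKM in Control ganglia, both parts of the malate-aspartate shuttle. Inside the mitochondrion the succinate dehydrogenase subunit Sdha had 59.7 FPKM after SNL and 104 FPKM in Control. Among the rest were Mdh2, Idh3g, Suclg1, Sucla2 and Pdhb, with log2 ratios between -0.78 and -0.60. Got2, the mitochondrial partner of Got1, had 209 FPKM in SNL and 189 FPKM in Control. Of 23 genes of fatty acid oxidation 3 fell and 0 rose, a share near the background of 9.99% of all symbols and 14.1% of those with a mean FPKM of at least 1, among them the electron transfer flavoprotein subunit Etfa (30.8 FPKM in SNL, against 64.5 FPKM in Control) and the carnitine transferase Cpt1a (23.9 FPKM in SNL and 37.3 FPKM in Control ganglia). Mitochondrial import, dynamics and ribosomes gave 3 of 31 (9.68%) lower and 0 higher, also near the background. These were the mitophagy receptor Bnip3 (76.2 FPKM after SNL and 136 FPKM in Control), the fission GTPase Dnm1l (36.2 FPKM in SNL, against 58.2 FPKM in Control) and the mitophagy kinase Pink1 (49.97 FPKM in SNL and 79.4 FPKM in Control ganglia).

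In glycolysis 2 of 23 members rose and 5 fell, with a median log2 ratio of -0.15. These counts hold Eno2 at 0.957 FPKM in SNL and 1.09 FPKM in Control, at the higher of its 2 rows. Rows that join several genes are matched to no class, and whether such a row holds Eno2 was not tested. Pfkm, the muscle-type phosphofructokinase, had 59.2 FPKM after SNL and 149 FPKM in Control, and Ldhb, the lactate dehydrogenase subunit of oxidative tissue, had 145 FPKM in SNL, against 325 FPKM in Control. The aldolase gene Aldoc had 239 FPKM in SNL and 377 FPKM in Control ganglia. Hk2 and the lactate exporter Slc16a3 rose at low levels, at 3.62 FPKM in SNL against 1.43 FPKM in Control and at 2.38 FPKM in SNL against 0.653 FPKM in Control. Gapdh was even, at 1345 FPKM in SNL and 1372 FPKM in Control, and Pkm had 474 FPKM in SNL and 418 FPKM in Control.

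None of the 25 constitutive proteasome subunits passed either threshold, with Psmb1 at 195 FPKM in SNL and 199.6 FPKM in Control and Psmb4 at 209 FPKM in SNL and 182 FPKM in Control. Of 23 autophagy genes 1 fell and 0 rose. That gene was Gabarapl2, at 64.8 FPKM in SNL against 113 FPKM in Control, and its paralog Gabarapl1 came close at 312 FPKM in SNL and 462 FPKM in Control. Map1lc3b, the gene of the autophagosome protein LC3B, had 515 FPKM in SNL and 381 FPKM in Control.

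Immunoglobulin-type and synaptic adhesion molecules formed the class with the largest share that fell, 22 of 39 members (56.4%), with 3 that rose and a median log2 ratio of -0.76. Sensory neuron markers fell over the same comparison (6 of 9, median log2 ratio -1.86), and their part in this class was not tested. Nor was it tested in the potassium channel, postsynaptic, receptor, calcium, diacylglycerol, glycolysis and tricarboxylic acid cycle classes. The immunoglobulin protein gene Kirrel3, which sorts vomeronasal axons in mice, had 1.96 FPKM after SNL and 18.6 FPKM in Control (log2 ratio -2.73). Cntn4, a contactin of axons, had 0.754 FPKM in SNL, against 7.39 FPKM in Control, and Cadm1, a synaptic adhesion molecule, had 26.6 FPKM in SNL and 89.98 FPKM in Control ganglia. The presynaptic partners of the neuroligins Nrxn2 and Nrxn3 fell. Nrxn2 had 33.5 FPKM in SNL, against 63.4 FPKM in Control and Nrxn3 had 4.28 FPKM in SNL and 12.4 FPKM in Control ganglia. The neuroligins in the table stayed within the fold, Nlgn1 at 3.11 FPKM in SNL and 4.26 FPKM in Control and Nlgn3 at 11.8 FPKM in SNL and 13.3 FPKM in Control. Nfasc, Cntnap1 and Cntn2, which encode proteins of the node of Ranvier and its flanks, fell too. Nfasc had 29.2 FPKM after SNL and 47.9 FPKM in Control, Cntnap1 had 41.7 FPKM in SNL, against 71.9 FPKM in Control and Cntn2 had 27.5 FPKM in SNL and 62.5 FPKM in Control ganglia. The 3 that rose were Igsf8 (43.2 FPKM after SNL and 21.9 FPKM in Control), Cadm4 (355 FPKM in SNL, against 189 FPKM in Control) and Mcam (216 FPKM in SNL and 140.0 FPKM in Control ganglia). Cadm4 is the Schwann cell partner of axonal adhesion molecules, and its paralog on axons, Cadm3, fell with 169 FPKM after SNL and 288 FPKM in Control. L1cam, by contrast, had 136 FPKM in SNL and 128 FPKM in Control.

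**Figure D4:**
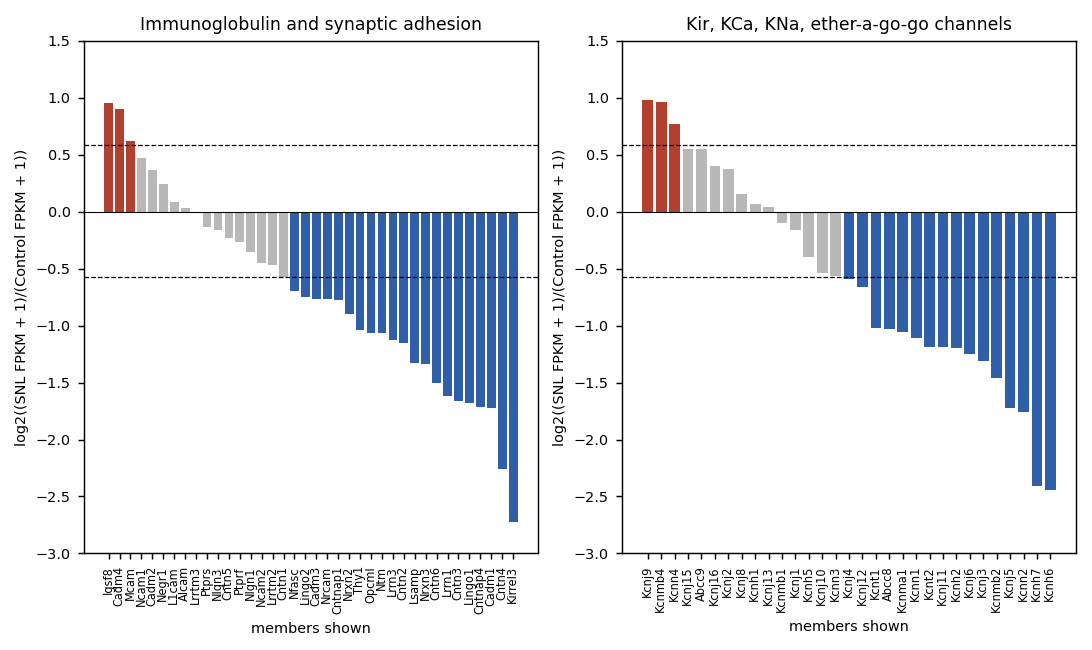
Log2 ratio of SNL over Control (FPKM + 1) for members in the table of the adhesion class (left, all but 1 of 39 members) and of the potassium channel class (right, 31 members), 1 bar per gene, red where it rose and blue where it fell. Dashed lines mark the fold thresholds, Kirrel3 is lowest on the left at -2.73 and Kcnh6 lowest on the right at -2.45.

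Cadherins followed in the same direction, with 11 of 29 lower and 2 higher (median log2 ratio -0.31). Cdh3 (P-cadherin) fell to 0.106 FPKM in SNL, against 8.43 FPKM in Control. Cdh1, the gene of the epithelial-type E-cadherin, had 41.7 FPKM in SNL, against 68.8 FPKM in Control. Protocadherins Pcdh7 and Pcdh9 fell alike, at log2 ratios of -0.87 and -0.87. Cdh19, a cadherin of Schwann cell precursors, rose with 43.9 FPKM in SNL and 23.03 FPKM in Control ganglia, and Ctnnb1 (beta-catenin) had 102 FPKM in SNL and 113 FPKM in Control.

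Inward rectifier, calcium-activated, sodium-activated and ether-a-go-go potassium channels fell in 16 of 31 cases and rose in 3, with a median log2 ratio of -0.59. These channels hold the resting potential or end bursts of firing. Kcnh6 had 0.988 FPKM after SNL and 9.84 FPKM in Control and Kcnh7 had 0.883 FPKM in SNL, against 8.99 FPKM in Control, both channels of the ERG family, and their paralog Kcnh2 had 17.9 FPKM in SNL and 42.5 FPKM in Control ganglia. Of the G protein-gated subunits Kcnj3 had 5.15 FPKM after SNL and 14.2 FPKM in Control, Kcnj5 0.176 FPKM in SNL, against 2.89 FPKM in Control and Kcnj6 0.275 FPKM in SNL and 2.03 FPKM in Control ganglia, whereas Kcnj9 rose with 4.66 FPKM after SNL and 1.87 FPKM in Control. Both parts of the neuronal ATP-sensitive channel fell. Kcnj11 had 1.21 FPKM in SNL, against 4.05 FPKM in Control and Abcc8 had 1.06 FPKM in SNL and 3.20 FPKM in Control ganglia. The large-conductance channel Kcnma1 had 3.04 FPKM after SNL and 7.39 FPKM in Control, while its subunit Kcnmb4 rose with 21.9 FPKM in SNL, against 10.8 FPKM in Control. Kcnt1, a sodium-activated channel of nociceptors and other neurons, had 10.5 FPKM in SNL and 22.4 FPKM in Control ganglia. Kcnn4, a calcium-activated channel of blood cells and macrophages, rose with 10.2 FPKM after SNL and 5.60 FPKM in Control. The glial channel Kcnj10 (Kir4.1) had 21.8 FPKM in SNL and 32.1 FPKM in Control, just inside the threshold.

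Genes of postsynaptic scaffolds and of synaptic proteins listed with them fell in 11 of 30 cases and rose in 1. The neuronal pentraxin gene Nptx1, which clusters AMPA receptors, had 1.73 FPKM in SNL, against 60.7 FPKM in Control (log2 ratio -4.50), the deepest fall of a class member listed above 0 in both groups. Its relatives Nptx2 and Nptxr had 15.4 and 25.9 FPKM in SNL, against 46.8 and 53.5 FPKM in Control. Cacng5, an AMPA receptor auxiliary subunit, had 0.351 FPKM in SNL and 9.45 FPKM in Control ganglia, and Cacng2 (stargazin) had 4.18 FPKM after SNL and 19.2 FPKM in Control. The scaffold gene Dlgap3 had 3.70 FPKM in SNL, against 21.6 FPKM in Control. Nsf, the ATPase of vesicle fusion, had 76.1 FPKM in SNL and 179 FPKM in Control ganglia. Homer3 was the member that rose, with 17.5 FPKM after SNL and 6.69 FPKM in Control. Dlg4, the gene of PSD-95, had 31.9 FPKM in SNL and 44.4 FPKM in Control.

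Of 24 glutamate, GABA-B, muscarinic, dopamine and histamine receptors 1 rose and 6 fell, and of 23 adenosine, cannabinoid and lysolipid genes 4 rose and 7 fell. The adenosine A1 receptor gene Adora1, through which adenosine dampens nociceptors, had 6.49 FPKM in SNL, against 29.4 FPKM in Control (log2 ratio -2.02). Gabbr2 had 14.4 FPKM in SNL and 47.4 FPKM in Control ganglia, while the other GABA-B subunit gene Gabbr1 had 112 FPKM in SNL and 132 FPKM in Control. Of the group III metabotropic glutamate receptors, Grm4 fell with 0.603 FPKM after SNL and 5.90 FPKM in Control and Grm7 fell with 2.95 FPKM in SNL, against 9.13 FPKM in Control. The cannabinoid CB1 receptor gene Cnr1 had 1.43 FPKM in SNL and 3.62 FPKM in Control ganglia, and Cnr2, the CB2 receptor of immune cells, had 1.40 FPKM after SNL and 0.270 FPKM in Control. Among enzymes of the endocannabinoid 2-arachidonoylglycerol, both the synthetic Dagla (10.8 FPKM in SNL, against 20.7 FPKM in Control) and the degrading Mgll (38.2 FPKM in SNL and 80.3 FPKM in Control ganglia) fell. The dopamine receptor gene Drd2, whose product inhibits adenylyl cyclase, was the receptor of the first class that rose, with 12.3 FPKM after SNL and 4.97 FPKM in Control. Among those of the second class that rose were S1pr2 (10.7 FPKM in SNL, against 6.21 FPKM in Control) and Lpar6 (6.09 FPKM in SNL and 3.62 FPKM in Control ganglia). Lpar3, a lysophosphatidic acid receptor, fell with 2.19 FPKM after SNL and 6.07 FPKM in Control, and Lpar1 had 33.4 FPKM in SNL and 26.4 FPKM in Control.

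The obligatory NMDA receptor subunit gene Grin1 had 10.8 FPKM in SNL, against 32.3 FPKM in Control. Grin2b rose at a low level, with 3.48 FPKM in SNL against 1.26 FPKM in Control. Glrb, the glycine receptor beta subunit, had 18.3 FPKM in SNL and 70.1 FPKM in Control ganglia (log2 ratio -1.88), and its anchor gephyrin (Gphn) had 6.76 FPKM after SNL and 12.3 FPKM in Control. Of the 16 members of this class 2 rose and 4 fell. Chloride channels and cotransporters were near even (2 of 28 up, 2 down). Clic4 had 100.5 FPKM in SNL, against 44.8 FPKM in Control and Ano6, a lipid scramblase, had 23.5 FPKM in SNL and 14.5 FPKM in Control ganglia, whereas Clcn4 had 10.6 FPKM after SNL and 28.2 FPKM in Control. Slc12a4, a potassium-chloride cotransporter, had 5.95 FPKM in SNL, against 15.6 FPKM in Control, and is listed at 0 with SNL + control AAV. Gap junction genes gave 3 of 18 higher and 2 lower, near the 15.7% and 14.1% of all symbols with a mean FPKM of at least 1. Gjc1 had 7.24 FPKM in SNL and 2.53 FPKM in Control ganglia and Panx1, an ATP release channel, had 18.1 FPKM after SNL and 7.63 FPKM in Control, while its paralog Panx2 fell with 14.7 FPKM in SNL, against 47.00 FPKM in Control. The satellite glia connexin gene Gja1 had 8.01 FPKM in SNL and 8.08 FPKM in Control. Gjb2 had 5.64 FPKM in SNL and 3.02 FPKM in Control ganglia and stood at 23.96 FPKM with SNL + control AAV. Carbonic anhydrase 2 (Car2), an enzyme of large sensory neurons in the rat, had 3.89 FPKM after SNL and 39.4 FPKM in Control (log2 ratio -3.05), and Car8 had 2.56 FPKM in SNL, against 9.13 FPKM in Control. The water channel gene Aqp11 fell with 5.20 FPKM in SNL and 9.30 FPKM in Control ganglia, and Aqp1 had 39.8 FPKM in SNL and 49.3 FPKM in Control. Of the 23 aquaporins and carbonic anhydrases 1 rose and 4 fell.

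Plasma membrane calcium pumps moved in both directions. Atp2b4, a plasma membrane calcium ATPase of many tissues, had 54.8 FPKM after SNL and 13.7 FPKM in Control (log2 ratio 1.93), whereas the neuronal isoform Atp2b3 had 2.81 FPKM in SNL, against 21.7 FPKM in Control (log2 ratio -2.58). Atp2b2 fell with 12.7 FPKM in SNL and 27.6 FPKM in Control ganglia, and the common isoform Atp2b1 had 31.7 FPKM in SNL and 41.5 FPKM in Control. The potassium-dependent exchanger Slc24a2 had 16.1 FPKM after SNL and 55.1 FPKM in Control. The mitochondrial calcium uniporter gene Mcu had 9.32 FPKM in SNL, against 25.6 FPKM in Control. In the endoplasmic reticulum, Atp2a2 (SERCA2) fell with 51.6 FPKM after SNL and 86.4 FPKM in Control and Ryr2 with 2.91 FPKM in SNL, against 7.07 FPKM in Control, while the inositol trisphosphate receptor gene Itpr3 rose with 39.8 FPKM in SNL and 24.7 FPKM in Control ganglia. The class gave 4 of 27 higher and 10 lower, with a median log2 ratio of -0.38. Stim1 and Orai1, which refill the store, stayed within the fold at 23.7 and 21.4 FPKM in SNL and 25.8 and 18.5 FPKM in Control.

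Enzymes of diacylglycerol signalling fell in 11 of 32 cases and rose in 3. Plcd4 had 2.40 FPKM after SNL and 42.4 FPKM in Control (log2 ratio -3.68), while its paralog Plcd1 rose with 32.4 FPKM in SNL, against 11.8 FPKM in Control. The diacylglycerol kinase gene Dgkz had 31.4 FPKM in SNL and 159 FPKM in Control ganglia. Prkce, the protein kinase C isoform known for the sensitization of nociceptors, had 11.03 FPKM after SNL and 45.3 FPKM in Control, and Prkca had 12.3 FPKM in SNL, against 33.6 FPKM in Control, while Prkcb had 43.1 FPKM in SNL and 36.7 FPKM in Control. Dgka is listed at 0 in SNL and 28.5 FPKM in Control at its leading row, by which it counts among the 11, and its other row had 13.6 FPKM in SNL and 7.97 FPKM in Control. Of 29 MAP kinases, phosphatases and feedback regulators 5 rose and 6 fell, beside 15.7% and 14.1% of all symbols with a mean FPKM of at least 1. The phosphatase gene Dusp26 had 342 FPKM in SNL and 115 FPKM in Control ganglia, Dusp6 had 18.3 FPKM after SNL and 6.16 FPKM in Control and Dusp1 had 41.4 FPKM in SNL, against 16.2 FPKM in Control. Dusp6 and Dusp1 are induced by the kinases that they switch off. Mapk10, the neuronal JNK3, fell with 34.6 FPKM in SNL and 79.7 FPKM in Control ganglia, and Mapk3 had 399 FPKM in SNL and 478 FPKM in Control. Dusp5 and Dusp15 fell to 1.82 and 25.5 FPKM in SNL, against 5.63 and 45.4 FPKM in Control.

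In the pericellular matrix, of 44 proteoglycans and enzymes of their sugar chains 17 rose and 10 fell. Syndecan 1 (Sdc1), a heparan sulfate proteoglycan of the cell surface, had 34.3 FPKM after SNL and 2.35 FPKM in Control (log2 ratio 3.40), and the glypican Gpc3 had 64.3 FPKM in SNL, against 22.2 FPKM in Control. Small leucine-rich proteoglycans of connective tissue were among those that rose, Dcn (decorin) with 607 FPKM in SNL and 268 FPKM in Control ganglia, Lum (lumican) with 158 FPKM after SNL and 60.1 FPKM in Control and Bgn (biglycan) with 114 FPKM in SNL, against 42.7 FPKM in Control. Fibroblast markers rose with them (10 of 12, summed FPKM 1236 in SNL and 507 in Control), and their part was not tested. Has1, a hyaluronan synthase, had 7.37 FPKM in SNL and 0.0638 FPKM in Control ganglia. The link protein of perineuronal nets Hapln1 ran the other way, with 0.0242 FPKM after SNL and 5.76 FPKM in Control, as did the brain-type lectican Bcan, with 4.44 FPKM in SNL, against 19.9 FPKM in Control. Several enzymes that sulfate heparan chains fell. Hs6st2 had 1.17 FPKM in SNL and 15.6 FPKM in Control ganglia, Hs3st2 had 4.08 FPKM after SNL and 35.02 FPKM in Control and Ndst4 had 4.47 FPKM in SNL, against 12.1 FPKM in Control. Hs3st2 had 5.67 FPKM with SNL + control AAV, and Sdc1 36.4 FPKM.

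Of 39 protease inhibitors and coagulation genes 15 rose and 1 fell (median log2 ratio 0.24). Leukocyte markers (15 of 16, summed FPKM 863 in SNL and 154 in Control) and fibroblast markers (10 of 12, summed FPKM 1236 in SNL and 507 in Control) rose over the same comparison, and their part in these genes was not tested. Serpina3n, an inhibitor of leukocyte elastase in mice, had 7.77 FPKM in SNL and 0.198 FPKM in Control ganglia (log2 ratio 2.87), and the secreted inhibitor Slpi had 22.6 FPKM after SNL and 3.08 FPKM in Control. Thbd (thrombomodulin) had 31.7 FPKM in SNL, against 6.54 FPKM in Control. Of the plasminogen system, the urokinase gene Plau had 8.28 FPKM in SNL and 2.19 FPKM in Control ganglia, its receptor Plaur 37.98 FPKM after SNL and 17.9 FPKM in Control and the tissue activator Plat 99.9 FPKM in SNL, against 57.5 FPKM in Control. The complement C1 inhibitor gene Serping1 had 148 FPKM in SNL and 49.8 FPKM in Control ganglia. Serpinb6 was the member that fell, with 167 FPKM after SNL and 376 FPKM in Control, and cystatin C (Cst3) had 1669 FPKM in SNL and 1550 FPKM in Control.

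Of 57 regulators of actin 19 rose and 2 fell (median log2 ratio 0.33). Filamin C (Flnc) had 21.8 FPKM in SNL, against 3.01 FPKM in Control, the small GTPase gene Rhoq had 74.6 FPKM in SNL and 17.3 FPKM in Control ganglia and Rhoc had 223 FPKM after SNL and 70.8 FPKM in Control. Fascin (Fscn1), which bundles actin in growth cones and migrating cells, had 88.7 FPKM in SNL, against 20.8 FPKM in Control. Genes of blood cell actin rose beside them. Rac2 had 16.9 FPKM in SNL and 2.35 FPKM in Control ganglia, Lcp1 (plastin 2) had 137 FPKM after SNL and 45.6 FPKM in Control and Was had 4.55 FPKM in SNL, against 1.20 FPKM in Control. With 15 of 16 leukocyte markers higher (summed FPKM 863 in SNL and 154 in Control), their part in these genes was not tested. Limk1 and Wasf1, both prominent in neurons, fell with 37.1 FPKM in SNL and 79.1 FPKM in Control ganglia and 18.2 FPKM after SNL and 33.4 FPKM in Control, while the related Limk2 and Wasf2 rose, at log2 ratios of 0.79 and 0.59. Cofilin (Cfl1) had 1006 FPKM in SNL and 866 FPKM in Control.

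Growth factor genes also moved in both directions. Egfr had 5.20 FPKM in SNL, against 1.39 FPKM in Control and Erbb2 had 9.79 FPKM in SNL and 4.35 FPKM in Control ganglia, while the axonal ligand neuregulin 1 (Nrg1) fell with 9.96 FPKM after SNL and 28.9 FPKM in Control. The ligand Hbegf rose with 24.6 FPKM in SNL, against 14.01 FPKM in Control. The ErbB class had 4 of 15 members higher and 2 lower. Of the insulin-like growth factor binding proteins 4 rose, Igfbp3 with 25.4 FPKM in SNL and 11.5 FPKM in Control ganglia, Igfbp5 with 141 FPKM after SNL and 69.9 FPKM in Control, Igfbp6 with 239.6 FPKM in SNL, against 116 FPKM in Control and Igfbp7 with 362 FPKM in SNL and 202 FPKM in Control ganglia, while Igfbp2 fell with 15.1 FPKM after SNL and 34.01 FPKM in Control. In the separately normalized SNL + control AAV group Igfbp5 stood at 422 FPKM and Igfbp2 at 53.4 FPKM. Igf1 had 9.59 FPKM in SNL and 6.96 FPKM in Control, and the class gave 5 of 18 higher and 3 lower. Of the 29 members of VEGF, PDGF and HGF signalling 7 rose and 3 fell. The receptor gene Axl, which binds dying cells through Gas6, had 51.5 FPKM in SNL, against 18.3 FPKM in Control. Pdgfc had 5.42 FPKM in SNL and 1.88 FPKM in Control ganglia and the receptor Pdgfra 9.11 FPKM after SNL and 4.65 FPKM in Control. Pgf fell with 2.92 FPKM in SNL, against 6.28 FPKM in Control and Pdgfd with 3.98 FPKM in SNL and 6.48 FPKM in Control ganglia, and Vegfa had 25.1 FPKM in SNL and 35.8 FPKM in Control.

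Lipid transport genes moved in both directions. Apod had 3822 FPKM after SNL and 1086 FPKM in Control (log2 ratio 1.81), whereas Apoe fell with 2677 FPKM in SNL, against 4145 FPKM in Control. The cholesterol exporter Abca1 had 30.2 FPKM in SNL and 12.6 FPKM in Control ganglia and the phospholipid transfer protein Pltp had 43.9 FPKM after SNL and 14.2 FPKM in Control, while the other exporter, Abcg1, fell with 10.7 FPKM in SNL, against 31.7 FPKM in Control. Of the fatty acid carriers Fabp5 had 1124 FPKM in SNL and 512 FPKM in Control ganglia and Fabp3 had 11.01 FPKM after SNL and 66.3 FPKM in Control. The class gave 5 of 25 higher and 4 lower, beside 15.7% and 14.1% of all symbols with a mean FPKM of at least 1. Sphingolipid and ganglioside synthesis gave 0 of 27 higher and 5 lower. St8sia1, the GD3 synthase, had 2.91 FPKM in SNL, against 13.3 FPKM in Control, St3gal5, the GM3 synthase that feeds it, had 11.1 FPKM in SNL and 18.6 FPKM in Control ganglia, and the ceramidase Asah2 had 1.84 FPKM after SNL and 7.05 FPKM in Control. Zinc and copper transporters gave 4 of 26 higher and 2 lower, at or under the same 15.7% and 14.1%. The zinc importers Slc39a6 (44.8 FPKM in SNL, against 21.5 FPKM in Control) and Slc39a1 (40.3 FPKM in SNL and 23.7 FPKM in Control ganglia) and the copper transporter Slc31a2 (8.92 FPKM after SNL and 4.51 FPKM in Control) rose, and the exporter Slc30a10 fell with 3.75 FPKM in SNL, against 7.47 FPKM in Control.

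Orphan and adhesion G protein-coupled receptors split into 8 higher and 9 lower of 37. The orphan receptor gene Gpr19 had 7.24 FPKM after SNL and 3.83 FPKM in Control. Adgre5 (CD97) had 8.67 FPKM in SNL, against 3.25 FPKM in Control, Adgre1 (F4/80) 4.24 FPKM in SNL and 1.28 FPKM in Control ganglia and Gpr34 2.23 FPKM after SNL and 0.293 FPKM in Control. Leukocytes express the 3 last-named genes, of which Adgre1 is also in the leukocyte list, and the part of the leukocyte markers, which rose in sum to 863 FPKM in SNL against 154 FPKM in Control, was not tested. Gpr149, an orphan receptor, fell with 1.41 FPKM in SNL, against 10.2 FPKM in Control, Adgrg2 with 4.91 FPKM in SNL and 13.2 FPKM in Control ganglia and Adgrb2 with 3.61 FPKM after SNL and 6.95 FPKM in Control.

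Outside all of these classes, a set of 60 symbols, among them the peptide genes Gal, Vip and Sst, was left aside, of which 5 had a higher log2 ratio than Stac2 and 4 a lower one than Scn11a. From the rest, the 20 highest and 20 lowest log2 ratios were taken by rule. Stac2, an adaptor of calcium channels, had 81.2 FPKM in SNL, against 1.90 FPKM in Control (log2 ratio 4.83). Ucn (urocortin), a peptide of the corticotropin-releasing factor family, had 27.5 FPKM in SNL and 0.465 FPKM in Control ganglia, and Atf3, the injury-induced transcription factor, had 269 FPKM after SNL and 13.1 FPKM in Control. Stmn4, a microtubule destabilizer, had 204 FPKM in SNL, against 19.4 FPKM in Control, and the axon guidance gene Flrt3 had 69.4 FPKM in SNL and 7.06 FPKM in Control ganglia. Enzymes in this set were arginase 1 (Arg1, 31.9 FPKM after SNL and 1.56 FPKM in Control), the sialyltransferase St3gal6 (20.98 FPKM in SNL, against 0.618 FPKM in Control), the endopeptidase Ecel1 (17.5 FPKM in SNL and 0.440 FPKM in Control ganglia) and Hpd of tyrosine breakdown (11.98 FPKM after SNL and 0.198 FPKM in Control). Tspo, a mitochondrial outer membrane protein used as an imaging target of neuroinflammation, had 121 FPKM in SNL, against 12.04 FPKM in Control. Reg3b (97.4 FPKM in SNL and 5.95 FPKM in Control ganglia), Xcl1 (19.7 FPKM after SNL and 0.567 FPKM in Control) and Cxcl14 (36.4 FPKM in SNL, against 2.99 FPKM in Control) encode secreted proteins of immunity. The cytoskeletal keratin gene Krt19 (31.7 FPKM in SNL and 1.52 FPKM in Control ganglia), the crystallin gene Cryba2 (54.2 FPKM after SNL and 4.05 FPKM in Control), Cmtm2a (10.2 FPKM in SNL, against 0.338 FPKM in Control) and the class II gene RT1-Ba (258 FPKM in SNL and 24.1 FPKM in Control ganglia) complete the named genes that rose. Levels with SNL + control AAV were 70.8 FPKM for Stac2, 264 FPKM for Atf3 and 116 FPKM for Tspo. They were 6.81 FPKM for Xcl1, 42.3 FPKM for Reg3b, 5.86 FPKM for Hpd and 524 FPKM for RT1-Ba. Because these levels were normalized separately, no fold against SNL is given.

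Several of the named genes that fell encode channels, receptors and peptides of sensory neurons. Scn11a, the nociceptor sodium channel Nav1.9, had 1.06 FPKM after SNL and 73.02 FPKM in Control (log2 ratio -5.16), and Dpp10, a partner of Kv4 channels, had 1.23 FPKM in SNL, against 51.7 FPKM in Control. Nrn1 (neuritin) had 8.24 FPKM in SNL and 221 FPKM in Control ganglia, the itch peptide gene Nmb had 3.09 FPKM after SNL and 92.4 FPKM in Control and the granin Scg2 had 7.61 FPKM in SNL, against 163 FPKM in Control. Rgs4, which ends G protein signals, had 17.2 FPKM in SNL and 377 FPKM in Control ganglia. Receptors among them were Grik1 (1.92 FPKM after SNL and 53.3 FPKM in Control), Chrna6 (1.12 FPKM in SNL, against 36.02 FPKM in Control) and the leukotriene receptor Cysltr2 (0.264 FPKM in SNL and 16.9 FPKM in Control ganglia). Lin7b (0.811 FPKM after SNL and 26.7 FPKM in Control), Doc2a (0.140 FPKM in SNL, against 14.3 FPKM in Control), Kcng1 (0.217 FPKM in SNL and 15.7 FPKM in Control ganglia), Tmem255a (1.58 FPKM after SNL and 38.1 FPKM in Control), Lhfpl1 (0.189 FPKM in SNL, against 15.97 FPKM in Control) and Muc15 (1.60 FPKM in SNL and 40.5 FPKM in Control ganglia) complete this set. For each of these genes the SNL + control AAV level, though normalized separately, also lay under the Control value, with Rgs4 at 22.5 FPKM and Nrn1 at 8.17 FPKM.

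A further 10 symbols are listed at 0 in 1 group and at 5 FPKM or more in the other, and 8 of them have several rows. An exact 0 in these tables can be a failed or split estimate, so no fold is given. Cdk12, the kinase of transcription elongation, is listed at 0 in SNL and 175 FPKM in Control and has 1 row. Mtf2 is listed at 72.9 FPKM in SNL and 0 in Control, and Gpcpd1 at 80.4 FPKM in SNL and 0 in Control. The other row of Mtf2 had 3.38 FPKM in SNL and 3.22 FPKM in Control, and that of Gpcpd1 had 19.6 FPKM in SNL and 22.2 FPKM in Control. Lypla1, Adap2 and Taf3 are listed at 0 in SNL at their leading rows, with 34.8, 13.6 and 12.6 FPKM in Control. Their other rows had 12.1, 4.11 and 2.59 FPKM in SNL and 12.3, 1.84 and 2.53 FPKM in Control, near even for Lypla1 and Taf3 and higher after SNL for Adap2. Pou2f3 is listed at 8.15 FPKM in SNL and 0 in Control, and its other row at 0.112 FPKM in SNL and 0.0279 FPKM in Control. For Adap2 and Dgka the 2 rows went in opposite directions. LOC100360619 and Mir6333 are listed at 0 in SNL, at 20.7 and 6.73 FPKM in Control.

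The share of symbols that rose or fell differed with the length of the locus that the table gives for the row. This locus can span neighbouring genes, so that it is not the length of the gene, and 383 of the 949 symbols in the longest group share their locus with another symbol. Among symbols with a mean FPKM of at least 1, 25.7% of the 894 with loci under 5 kb rose and 11.6% fell. Of the 949 symbols with loci of 200 kb or more, 11.9% rose and 25.9% fell, with a median log2 ratio of -0.17. Without symbols that share a locus, an alternative chosen after seeing the data, 9.36% of 566 rose and 31.1% fell in this group, and 25.8% of 883 rose and 11.6% fell under 5 kb. Examples among the genes named above with such loci are Cntn4, Dpp10, Pcdh9, Nrg1, Kirrel3, Rbfox3 and Gabbr2, which fell. Celf2, Gpc3 and Cxcl14 rose, and other named genes with such loci are not listed here. Expression level, cell type and length were not separated here. By level, 19.5% of symbols with a mean of 1 to 10 FPKM rose and 12.6% fell, beside 12.0% and 14.8% at 10 to 100 FPKM.

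**Figure D5:**
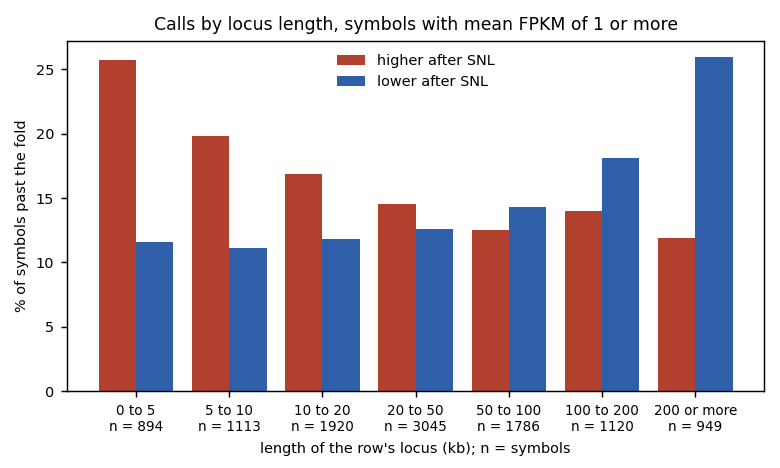
Share of symbols that rose (red) or fell (blue) after SNL, in percent, by the length of the row's locus in kb, for symbols with a mean FPKM of at least 1, with the number of symbols under each pair of bars. The share that rose is 25.7% in the shortest and 11.9% in the longest group, and the share that fell 11.6% and 25.9%.

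In 3 places a run of at least 5 neighbouring symbols on a chromosome moved in 1 direction (coordinates of rn5). Rows that join several genes and rows without a symbol were passed over, so such rows can lie between these neighbours. On chromosome 7, from 119690403 to 120019104, 7 neighbours from Il2rb to Card10 rose, with Rac2 (16.9 FPKM in SNL and 2.35 FPKM in Control) and the Arf exchange factor Cyth4 (13.6 FPKM in SNL and 3.10 FPKM in Control) among them. On chromosome 20, from 6052971 to 6212754, 6 symbols of the major histocompatibility complex rose. The immunoproteasome subunits Psmb8 (12.6 FPKM after SNL and 3.79 FPKM in Control) and Psmb9 (15.7 FPKM in SNL, against 5.75 FPKM in Control) lie in this run, apart from the constitutive subunits described above. On chromosome 2, from 183468773 to 184037054, 5 neighbours from Mlf1 to Rarres1 fell, among them Shox2, a homeobox gene of touch neurons in mice (5.50 FPKM in SNL and 11.5 FPKM in Control ganglia), and Lxn, a carboxypeptidase inhibitor (193 FPKM after SNL and 314 FPKM in Control).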

How the data were processed

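Stranded polyA libraries of the L5 DRG, 3 for each group, were sequenced by the authors as paired reads of 75 bp, aligned to rn5 with RefSeq genes and assembled with Cufflinks, which the submitters' processing notes also name. The authors' deposited table gives 1 FPKM value per group, made over its 3 libraries, which by itself gives neither the spread between animals nor the depth, and no test, interval or leave-one-out analysis was made. Its other columns (log2 fold change, test statistic, p-value, q-value and call) hold the authors' own comparison and were not used.

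Symbols were taken from 18160 of 28578 rows. For 1118 symbols with several rows the row with the highest mean was used. Rows that join neighbouring genes (403 combinations) were counted as 1 symbol each and matched to no class, and 23 symbols that the table gives as dates are not named. The joined rows were left out of the length groups and of the runs of neighbouring symbols. Log2 ratios used FPKM + 1, with thresholds of 1.5 and 0.67.

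The 46 classes and 10 marker lists were chosen with earlier results of these data known, and the leukocyte and fibroblast lists were added after values had been seen. Of 1347 class symbols 1237 were matched, 13 of them by another name in a RefSeq table of GRCr8, used for names and promoters only. Per class, up to 3 members past the threshold in each direction whose higher value was 5 FPKM or more were named, by the size of their log2 ratio, or, with fewer than 2 such members, the 2 with the highest mean. The 20 highest and 20 lowest symbols outside the classes and not described before were added. Other members named in the text were chosen after their values were seen, for their role. Some members are not reported here by name, and they remain in the class counts. The calling of folds was tested on simulated data with known changes, which does not compare the counts with chance.

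Alternatives were pseudocounts of 0.1 and 5, a mean FPKM of at least 1, thresholds of 2 and 0.5, a median log2 ratio set to 0, rows of a symbol summed, and joined rows left out. Symbols that share a locus were left out of the length groups as an alternative added after seeing the data. The versions used were Python 3.11.15, numpy 2.4.6, pandas 2.3.3 and, for plots, matplotlib 3.10.9.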

Additional observations from a re-analysis of the deposited data

Results flagged for a closer look

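Besides the symbols, the table for SNL and Control holds 10418 rows without a gene symbol, which no class or comparison above uses. Of these, 1020 (9.79%) were higher and 1315 (12.6%) lower after SNL by the same thresholds on FPKM + 1, beside 11.4% and 9.99% of the symbols. These rows are transcripts that the authors' assembly did not join to an annotated gene, and which of them belong to known genes was not tested.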

How the results depend on the processing

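The files hold 1 pooled value per group, so no replicate could be left out. No paired analysis was possible because the deposited columns carry no replicate. With the main settings 1928 symbols were higher and 1687 lower after SNL. A pseudocount of 5 gave 1004 higher and 1063 lower, thresholds of 2 and 0.5 gave 828 higher and 765 lower, and a pseudocount of 0.1 gave 2818 higher and 2247 lower. Under the other 4 alternatives the counts stayed between 1748 and 1928 higher and between 1568 and 1694 lower. No named gene changed direction. Of 238 genes that the naming rule gave past the threshold, 209 stayed past it with a pseudocount of 5 and 170 with thresholds of 2 and 0.5. Of all 426 class members past it, 268 and 219 did. With the median set to 0, Hdac2 and Wasf2 were no longer past it, and with rows summed F2rl2 was not. Class counts fell accordingly with thresholds of 2 and 0.5, in the tricarboxylic acid cycle to 2 lower members against 9, in cadherins to 3 against 11 and in the DNA damage response to 5 higher members against 12. Higher members also went to 1 against 7 in the ATF4 amino acid response, to 1 against 5 among KLF and SP factors and to 2 against 6 among clock genes. Among the named genes lost with a pseudocount of 5 were Cpt1a, Phgdh, Lcn2, Hdac1, Kcnn4, Gphn and Gjb2. The balance of higher and lower members turned round for aquaporins and carbonic anhydrases and for MAP kinase regulators with a pseudocount of 0.1, and for orphan and adhesion receptors with a pseudocount of 5 or with thresholds of 2 and 0.5. Low values are the weakest part of these data, since FPKM alone does not give the number of reads behind them. Cufflinks shares reads among overlapping and near-identical genes, and whether it used strand is not given in the sources used here.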
